A study of Mus musculus with 2 samples.

Results

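The 1332 strongest Ptf1a sites of 266.6 cells are described here, out of 30691 sites in the authors' list and 30327 on chromosomes 1 to 19. A site was taken as strongest when at least 200 distinct ChIP reads and at most 31 input reads lay within 100 bp of its listed position. Reads are distinct when they differ in chromosome, 5′ end or strand, and each 5′ end was first moved 73 bp downstream, toward the middle of its DNA fragment. The sites were thus selected on the ChIP and input reads in that window, which are given below as a description, without a test. Positions refer to mouse build mm9, and a site is named by its chromosome and listed position.

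The data came from 1 chromatin immunoprecipitation sequencing (ChIP-seq) library made with an antibody to Ptf1a and 1 library of input chromatin, which had no antibody selection. Both were made from 266.6 cells of mixed C57BL/6 X SJL strain at passage 26, fixed with 1% formaldehyde for 10 min. For the ChIP library, 2 immunoprecipitations were pooled before fragments of 100 to 400 bp were cut from a gel. The labels present these cultured cells as a model of pancreas progenitors of the early embryo, and they are 1 cell line, not the organ. There was no second library of either kind, so intervals below cover counting error only, and tests on reads compare these 2 libraries and not conditions.

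Ptf1a belongs to the transcription factors with a basic helix-loop-helix domain. It pairs with an E protein and is joined by RBPJ or its pancreatic relative RBPJL to form the PTF1 complex, which contacts an E-box together with a nearby TC-box. In the early pancreas the factor is needed for the organ to form, and in acinar cells the complex keeps the digestive enzyme genes active. Transcription factors often bind several places close together, in promoters and in enhancers, which are stretches of DNA that raise the activity of genes at a distance.

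Depths were alike, at 28502488 ChIP reads and 27959618 input reads. Listed positions of the strongest sites were 4.34% of the whole list. Within 100 bp of them lay 754480 ChIP reads, which is 2.65% of the library and 26.5% of the ChIP reads near any listed site. The same windows held 9200 input reads, or 0.0329% of the input library and 4.39% of the input reads near listed sites.

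Distinct ChIP reads at the strongest sites ran from 200 to 397, with a median of 243 and quartiles of 219 and 277. The window has room for 402 distinct reads, so the highest sites came close to its limit. All ChIP reads, repeats included, ran from 288 to 2679 with a median of 476. Each distinct read stood for 1.43 to 6.75 reads at single sites, with a median of 1.97. Repeats made up 55.4% of ChIP reads at the strongest sites, against 31% at sites with 100 or more but under 200 distinct reads, 17.8% at 50 to 99 and 11.3% under 50. In the input library repeats were 2.58% of reads at the strongest sites and 2.36% to 2.61% in the other classes. Repeats of an amplified library without molecular identifiers may be copies of 1 molecule or separate molecules, and the 2 kinds cannot be told apart here.

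Input reads in the same windows ran from 0 to 25 with a median of 6, and 13 strongest sites had none. Both strands took part about equally. The plus strand held a median of 50.1% of the distinct ChIP reads, with a lowest value of 40.4% and a highest of 60.1%. The median plus-strand and minus-strand 5′ ends within 250 bp stood 143 bp apart at the median site, with quartiles of 134 and 149 bp. The 201 bp window with most distinct reads, searched to 300 bp on each side, was centred a median of 4 bp from the listed position. It lay within 50 bp at 1308 sites and more than 100 bp away at 9.

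The threshold passed through a dense range of values. There were 96 strongest sites with 200 to 204 distinct reads and 107 listed sites under the input limit with 195 or more but under 200. Just inside were 21 sites with exactly 200, and the first 5 by position had 321 to 479 ChIP reads in all and 1 to 6 input reads. They were position 173373373 on chromosome 1, positions 45807771 and 70599192 on chromosome 10, and positions 32815364 and 39225920 on chromosome 11. Just outside were 16 sites that fell short by 1 read, and the first 5 had 323 to 390 ChIP reads and 1 to 6 input reads. Chromosomes 1, 10 and 11 held those at positions 192281531, 96444184 and 34811652. Chromosomes 13 and 14 held those at 57766397 and 73214303. These sites differ by a single read and fall on either side of the line.

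The limit on input reads left out 11 sites that had enough distinct ChIP reads. Their input counts ran from 65 to 2107, well above the highest count of 25 among the strongest sites, so no site lay near that limit. Of the 11, 7 stood on chromosome 17 between positions 39980287 and 39985561, with 310 to 846 ChIP reads and 376 to 1278 input reads each.

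The site with most distinct reads was position 29762204 on chromosome 16, where 397 distinct reads stood for 2679 reads in all, against 6 input reads. It was followed by position 4735410 on chromosome 17 (390 distinct, 2129 in all, 9 input) and position 30894770 on chromosome 5 (387, 2127 and 11). Next came position 28396887 on chromosome 5 (384, 2210 and 14), and positions 87978652 and 86520470 on chromosome 15 (382 and 380 distinct reads). The remaining 4 of the first 10 were position 108067533 on chromosome 5 and position 62423929 on chromosome 15, with 379 distinct reads each, position 26080970 on chromosome 2 with 378 and position 107864994 on chromosome 3 with 375. The order by all reads was different: position 62423929 on chromosome 15 had 1448 reads, whereas position 26080970 on chromosome 2 had 2479.

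Each of these 10 had another listed site within 12500 bp. The nearest stood 429 bp away at the chromosome 3 site, 474 bp away at position 28396887 on chromosome 5 and 886 bp away at the chromosome 17 site. It was farthest for position 29762204 on chromosome 16 (12214 bp) and position 108067533 on chromosome 5 (12476 bp). The groups they stood in had 2 to 9 listed sites. Only in the group on chromosome 5 around position 30894770 and in that around position 86520470 on chromosome 15 were there other strongest sites, giving 3 and 2 in all.

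The authors' peak height, whose definition is not given in the sources used here, was close to the number of distinct reads at most of the strongest sites. The ratio of height to distinct reads had a median of 0.936 and quartiles of 0.904 and 0.954. At 62 sites (4.65%) the height was under 0.5 of the distinct reads, and at 36 sites it was under 100. Position 117520348 on chromosome 4 was listed with a height of 24, near the lowest in the list, and had 271 distinct ChIP reads, 560 in all and 5 input reads. Position 66421550 on chromosome 5 was listed at 36 and had 320 distinct reads. Position 108067533 on chromosome 5, among the first 10 by distinct reads, was listed at 83.

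The 62 sites had a median read count close to that of all strongest sites, but their piles stood farther from the listed position. Their median of all ChIP reads was 504 (476 for all strongest sites) and their median strand distance 143 bp in both. Their densest window was centred a median of 25.5 bp from the listed position, against 4 bp for all strongest sites. It lay within 10 bp at 16 of the 62 and at 1034 of the 1332. A listed neighbour within 500 bp was present at 12.9% of them and at 18.3% of all strongest sites. Among sites with 100 or more but under 200 distinct reads, 7.04% had a height under 0.5 of their distinct reads. A cut on height alone at 200 would pick a smaller set, nearly all of it among the strongest sites. On chromosomes 1 to 19, 929 listed sites had a height of 200 or more, of which 922 were among the 1332. What lowers the height at the 62 sites was not tested.

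**Figure D1:**
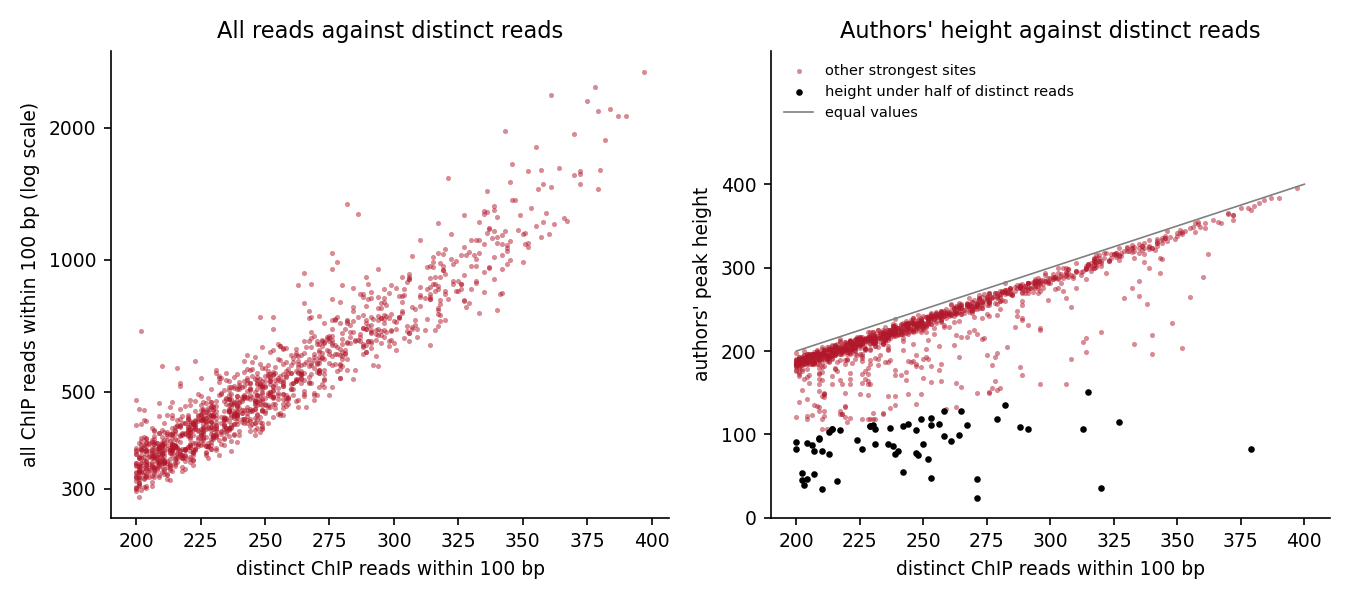
Values of the 1332 strongest sites, 1 point per site. The left panel sets all ChIP reads (log axis) against distinct ChIP reads within 100 bp, and the right panel sets the authors' peak height against distinct reads, with black points for the 62 sites whose height was under 0.5 of their distinct reads and a grey line for equal values.

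The first comparison was of distances: whether the strongest sites stand nearer to other listed sites than weaker ones do. Of the 1332, 982 (73.7%, Wilson 95% interval 71.3 to 76.0%) had another listed site within 12500 bp. Over all listed sites of chromosomes 1 to 19, the share was 60.8%. It was 63.2% at sites with 100 or more but under 200 distinct reads, 60.7% at 50 to 99 and 58.7% under 50. The median distance to the nearest other listed site was 2627 bp for the strongest sites, with quartiles of 663 and 13283 bp. For the 3 weaker classes, in the same order, it was 5944, 7522 and 7964 bp. With only listed sites of height 30 or more, the medians of the 4 classes were 6326, 11495, 13750 and 14636 bp. With listed sites within 500 bp joined to the one with most distinct reads, they were 4972, 8109, 9957 and 10756 bp. The strongest sites kept the shortest median under both settings, although it was longer than 2627 bp. These shares were set side by side and the difference between classes was not tested, because listed sites are not replicates and each library was single.

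The gap to all listed sites was wide from 1 kb to 12500 bp and narrow at 100 kb. A listed site within 500 bp was present at 244 strongest sites (18.3%), against 13.0% of all listed sites. Within 1 kb the shares were 34.5% and 21.7%, and within 5 kb 59.1% and 43.9%. Within 100 kb they were 96.0% and 93.7%. The nearest neighbour lay 300 to 400 bp away at 111 strongest sites (8.33%), as it did at 4.98% of all listed sites. Under 200 bp there were 2 strongest sites, whose windows share reads with the neighbour's.

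Fragments cut from the gel ranged up to 400 bp, so the reads of very near neighbours cannot be told apart from those of the strong site. With neighbours within 500 bp left out, 914 of the 1332 (68.6%, 66.1 to 71.1%) still had a listed site between 500 bp and 12500 bp away. The shares in the weaker classes were then 59.5%, 56.5% and 54.8%. On average 2.03 other listed sites stood within 12500 bp of a strongest site, and 1.57, 1.41 and 1.40 in the weaker classes. The median was 1 in each class, and the most crowded strongest site had 17.

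**Figure D2:**
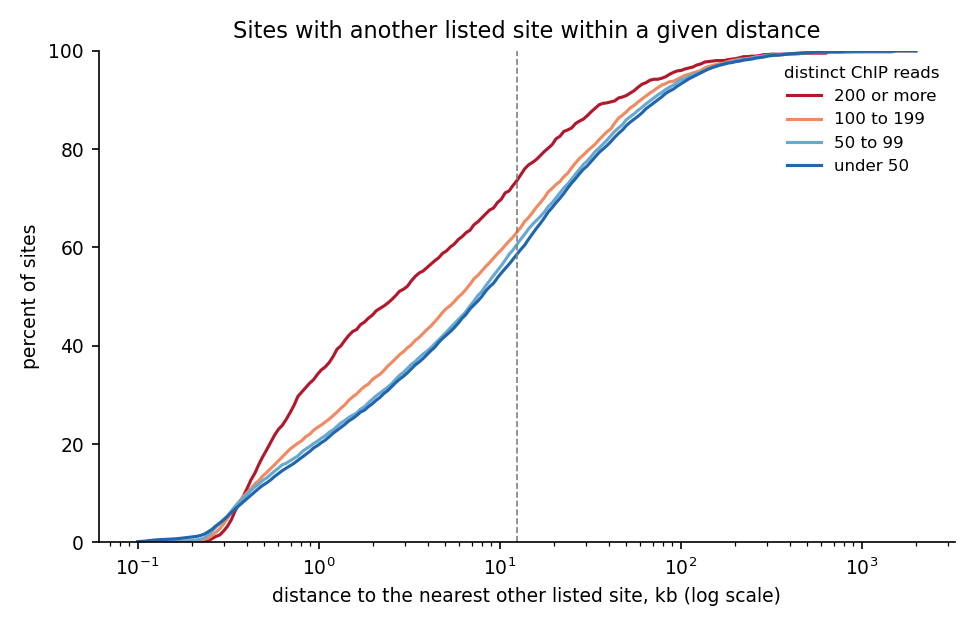
Percent of sites with another listed site within a given distance (log axis, kb), with 1 line for each class of distinct ChIP reads. The dashed line marks 12500 bp, where the strongest sites stand at 73.7% and the 3 weaker classes between 58.7 and 63.2%.

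Within the 1332, the share with a neighbour was larger in classes of more reads. It was 69.9% (65.3 to 74.2%) among the 409 sites with 200 to 224 distinct reads, and 71.5% among the 351 sites with 225 to 249. It was 76.2% among the 369 sites with 250 to 299 and 80.8% (74.8 to 85.6%) among the 203 sites with 300 or more. The median distance was 3354 bp in the lowest of these classes and 1356 bp in the highest. The intervals treat each site as a separate draw, which listed sites are not, and the difference between these classes was not tested.

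Local input depth also differed between the strongest sites and the others. Input reads 1 to 5 kb away, outside 500 bp of other listed sites, had a median density of 17.6 reads per kb at the strongest sites, against 16.4, 16.1 and 16.3 in the weaker classes. Within the 1332 it was 16.7 in the lowest class of distinct reads and 18.8 in the highest. Listed sites were therefore split into 4 equal parts by this density. In the part with the fewest input reads, 54.6% of 249 strongest sites (48.4 to 60.7%) had a neighbour within 12500 bp, against 40.8%, 40.7% and 37.3% in the weaker classes. In the part with the most, the shares were 88.2% of 423 (84.8 to 90.9%), 84.0%, 80.7% and 79.7%. In the 2 middle parts they were 66.0% and 76.8% for the strongest sites, and 52.8 to 58.9% and 65.8 to 68.9% in the weaker classes. In each class the share was larger where input reads were denser, and in each part it was largest for the strongest sites. The part of input depth in the difference between classes was not tested.

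The same order held on most chromosomes. The share with a listed neighbour was larger for the strongest sites than for sites with 100 or more but under 200 distinct reads on 17 of 19 chromosomes. The exceptions were chromosome 6 (62.3% and 63.2%) and chromosome 17 (66.7% and 70.2%). The share was highest on chromosome 5, at 87.0% of 138 strongest sites, and lowest on chromosome 12, at 57.6% of 33. Strongest sites were 4.39% of listed sites on the 19 chromosomes together. They were most frequent on chromosome 16, with 67 of 1282 (5.23%, 4.14 to 6.58%), and least on chromosome 12, with 33 of 1123 (2.94%, 2.10 to 4.10%). Per 1000000 input reads there were from 34.2 on chromosome 12 to 74.0 on chromosome 11.

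Most strongest sites had no other strongest site close by. Another of the 1332 lay within 12500 bp of 164 of them (12.3%, 10.7 to 14.2%), while 7.81% of all listed sites had a strongest site within that distance. The share was 9.36% for sites with 100 or more but under 200 distinct reads, 7.08% for 50 to 99 and 7.54% under 50. The median distance from 1 strongest site to the next was 246296 bp. Within 100 kb, 442 (33.2%) had another.

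The usual companion was a weak site. Among the 982 strongest sites with a listed neighbour within 12500 bp, the nearest neighbour had a median of 45 distinct reads, with quartiles of 30 and 92. It had under 0.5 of the strongest site's distinct reads in 808 cases (82.3%) and more in 39. Such low values are common in the list as a whole, and the neighbours of weaker sites were alike. At 500 to 1000 bp the nearest neighbour of a strongest site had a median of 43 distinct reads, and that of sites in the weaker classes had 46, 44 and 47. At 5000 to 12500 bp the medians were 41, 45, 43 and 43. These medians thus lay close together whatever the class of the site beside them.

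Distinct reads mostly dipped between a strongest site and a near neighbour. The neighbours are positions of the authors' peak list, so a dip before them is partly built in and is given as a description. For 215 strongest sites the nearest listed site lay 500 to 1000 bp away. Within 25 bp of the strongest site there was a median of 83 distinct ChIP reads, within 25 bp of the midpoint 4, and within 25 bp of the neighbour 15. The midpoint had fewer than the neighbour in 190 of the 215 pairs (88.4%). At 300 to 500 bp these medians were 83, 9 and 14 over 211 pairs, and the midpoint was the lower in 160 (75.8%). Reads of the strongest site and its neighbour cannot be told apart at that distance. In the remaining pairs the midpoint was not lower than the neighbour, so these show no dip between the positions.

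The next comparison was of standing alone or in a group, with listed sites joined where neighbours lay within 12500 bp. Alone stood 350 strongest sites (26.3%, 24.0 to 28.7%). Another 619 (46.5%) stood in groups of 2 to 4 sites, 239 (17.9%) in groups of 5 to 9 and 124 (9.31%) in groups of 10 or more. Groups of 5 or more thus held 27.3% of the strongest sites and 18.7% of all listed sites. Sites with 100 or more but under 200 distinct reads stood alone in 36.8% of cases, those with 50 to 99 in 39.3% and those under 50 in 41.3%.

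**Figure D3:**
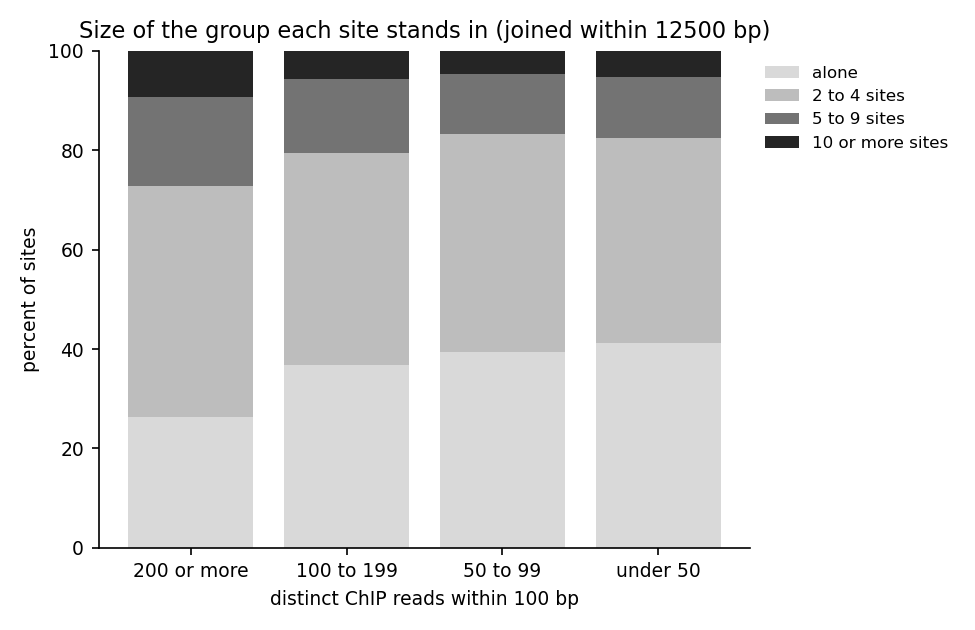
Share of sites that stand alone or in groups of 2 to 4, 5 to 9 and 10 or more listed sites joined within 12500 bp, by class of distinct ChIP reads. The strongest sites stand alone in 26.3% of cases and the weaker classes in 36.8 to 41.3%.

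Seen from the groups, 1217 of the 17864 groups and lone sites held a strongest site. The share that did was 2.94% of lone sites, 9.05% of pairs, 15.8% of groups of 3 or 4, 31.6% of groups of 5 to 9 and 58.4% of the 113 groups of 10 to 19. Larger groups have more sites that could qualify. Counted over sites, strongest ones made up 2.94% of lone sites, 4.70% of sites in pairs, 5.03% in groups of 3 or 4, 6.17% in groups of 5 to 9, 7.16% in groups of 10 to 19 and 5.76% of the 382 sites in the 12 groups of 20 or more. Groups of 2 or more with a strongest site had a median of 3 sites over 8.74 kb, and those without had 2 sites over 6.00 kb.

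A group mostly had 1 strongest site. Of the 1217, 1120 had 1, 84 had 2, 9 had 3, 3 had 4 and 1 had 5, so 212 strongest sites shared a group with another. The 115 neighbouring pairs of strongest sites within a group lay a median of 4972 bp apart, with quartiles of 1243 and 12115 bp, and 22 pairs lay within 1 kb. The closest pair was 248 bp apart. In the 165 groups of exactly 3 sites with 1 strongest site, it was the middle site in 72 and an end site in 93. Each such group has 1 middle and 2 end positions, so counted per position the strongest site was more often the middle one. A preference for either place was not tested.

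The group with 5 strongest sites lay on chromosome 11 from 74277864 to 74369766, with 25 listed sites over 91.9 kb. Its strongest sites had 200, 248, 227, 241 and 208 distinct reads in order of position, and 326 to 446 reads in all. The first pair, at positions 74301502 and 74301764, stood 262 bp apart. Around the first of them the densest window lay 258 bp away, at the second, so the first had no summit of its own in that search. The 20 other sites had a median of 43 distinct reads, and the 5 held 49.7% of the ChIP reads in the group's windows.

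Groups with 4 strongest sites lay on chromosomes 8, 9 and 4. On chromosome 8, from 125161003 to 125223298, 24 sites covered 62.3 kb, and the 4 had 208, 263, 247 and 252 distinct reads. They held 56.1% of the ChIP reads in the group's windows. On chromosome 9, from 70665418 to 70745586, 17 sites covered 80.2 kb. The 4 strongest sites there had 244, 224, 339 and 298 distinct reads and held 79.9% of the reads.

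The group on chromosome 4 from 115513975 to 115537990 was the most compact of these, with 12 sites in 24.0 kb. Its strongest sites had 296, 244, 204 and 327 distinct reads. The other 8 sites had a median of 104 distinct reads, against 30 to 43 in the other groups named here. The stretch as a whole held 4590 ChIP and 649 input reads, a ratio of 7.93 (exact 95% interval 7.30 to 8.62) after scaling to reads away from listed sites. The corresponding ratios were 3.41 on chromosome 11, 3.99 on chromosome 8 and 3.21 on chromosome 9. Of the 9 groups with 3 strongest sites, the one with most listed sites lay on chromosome 1 from 195208233 to 195275564. Its strongest sites had 317, 265 and 217 distinct reads among 22 sites, and its ratio was 3.12. The listed sites helped to define these stretches, so the ratios are descriptions.

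At the other extreme, 53 strongest sites (3.98%) had no listed site within 100 kb, against 6.27% of all listed sites on chromosomes 1 to 19. The farthest was position 90901249 on chromosome 8, 1542317 bp from its nearest listed site, with 282 distinct ChIP reads, 560 in all and 4 input reads. It was followed by position 96943766 on chromosome 2 (1489899 bp, with 200 distinct reads and 0 input reads), position 20048550 on chromosome 1 (956196 bp, with 216), position 49445605 on chromosome 15 (653645 bp, with 249) and position 63733170 on chromosome 12 (648673 bp, with 312). Their flanks 1 to 5 kb away held 92, 47, 55, 109 and 45 ChIP reads against 100, 48, 53, 95 and 30 input reads. None of these 5 passed the test of flanking reads described below, where their adjusted p ran from 0.183 to 0.992 (exact binomial test).

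The reads were also searched for summits missing from the list. Around the 350 lone strongest sites, 12 had an unlisted summit within 12500 bp, taken as 50 or more distinct ChIP reads in a 201 bp window, over 4 times the scaled input and more than 500 bp from any listed position. Around all 1332 there were 45 sites with such a summit within 12500 bp and 30 within 5 kb. Counting these summits as sites moved the share with a neighbour from 73.7% to 74.6%. The corresponding values for weaker listed sites are not given here, so these counts do not set the strongest sites apart. The search could not find summits under 50 distinct reads, and 17356 of the listed sites are that weak, so weaker unlisted companions were not looked for.

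**Figure D4:**
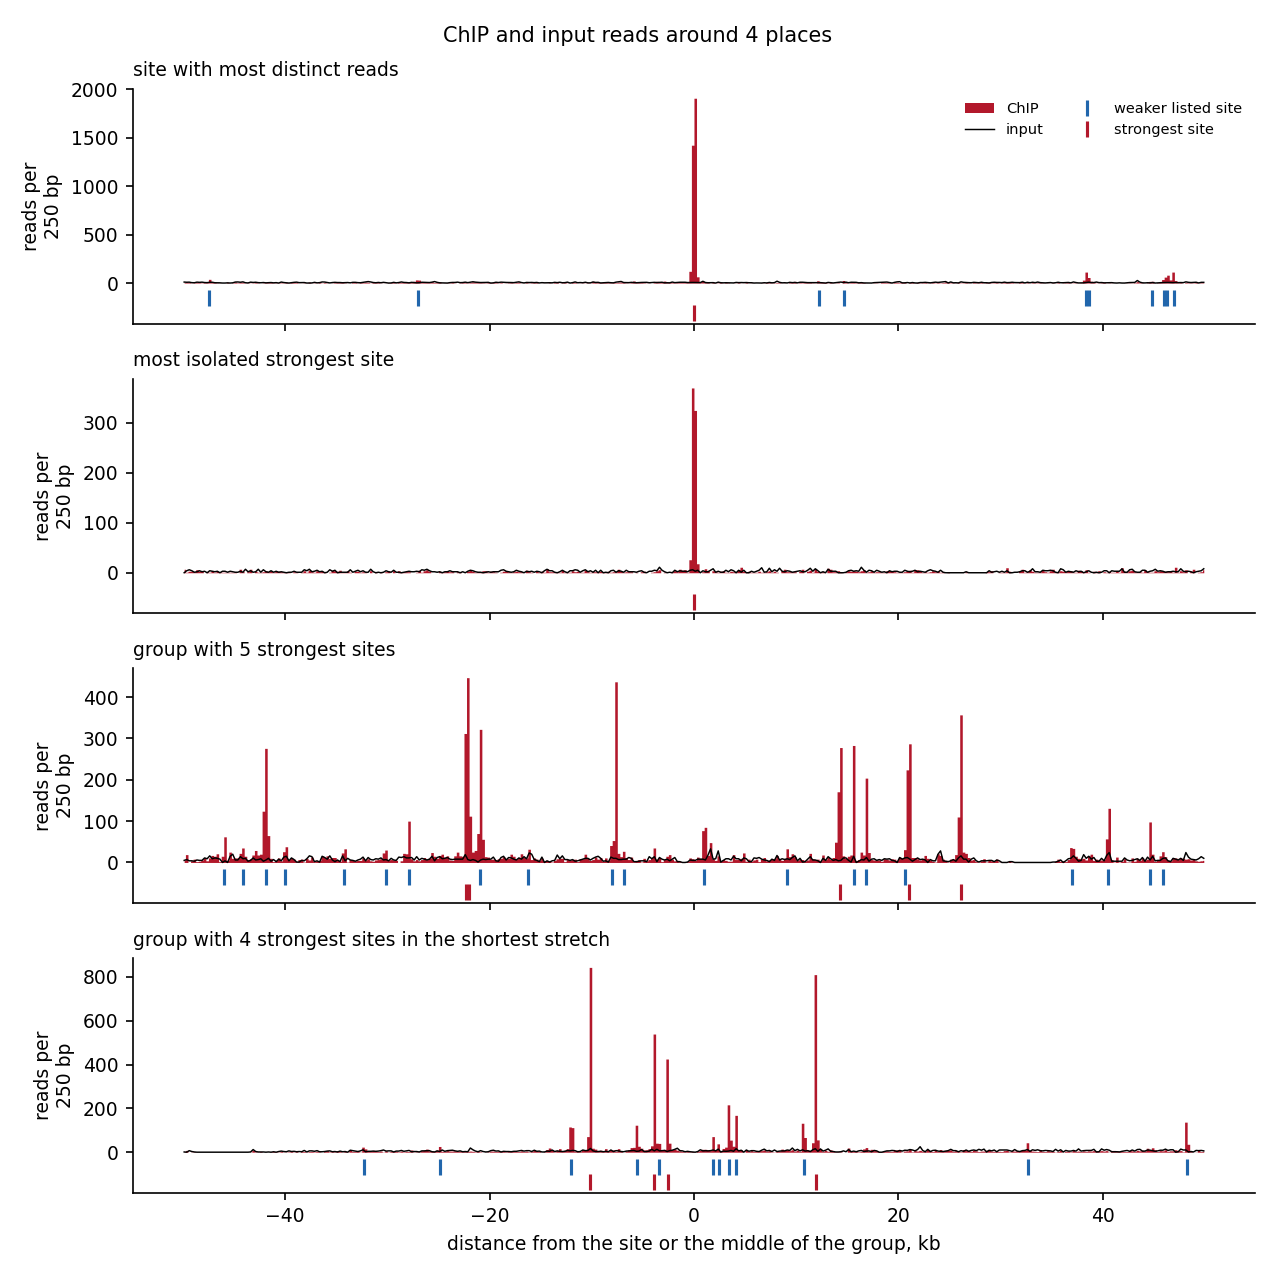
ChIP reads (red) and input reads (black line) in bins of 250 bp, out to 50 kb on each side of 4 places, with distance in kb on the lower axis and a separate vertical scale per panel. Marks below each track show weaker listed sites (blue) and strongest sites (red), with a single pile at the isolated site and many piles in the groups with 5 and 4 strongest sites.

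The last comparison was of ChIP with input reads in the flanks, which the choice of sites did not use. Reads within 500 bp of other listed positions were left out, and ratios were scaled by reads more than 5 kb from any listed site, 0.892 ChIP reads per input read. From 500 to 1000 bp the strongest sites had 30.9 ChIP and 20.2 input reads per kb, a scaled ratio of 1.72 (exact 95% interval 1.69 to 1.75). From 1 to 2 kb it was 1.27 (1.25 to 1.28) and from 2 to 5 kb 1.13 (1.12 to 1.14). In the weaker classes, in order of falling reads, the ratio was 1.43, 1.27 and 1.18 in the nearest band, 1.17, 1.11 and 1.09 in the middle band and 1.08, 1.05 and 1.04 in the farthest. Of the strongest sites, 148 had another within 10 kb and share some flanking reads with it, which makes these intervals somewhat too narrow. Scaled by the totals of the libraries instead, the ratio from 2 to 5 kb was 0.990 (0.983 to 0.998), below 1, so the direction in that band rests on the scaling.

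The decline can be followed at the 404 strongest sites with no other listed site within 10 kb. Within 100 bp of the position they had 2660 ChIP reads per kb. This fell to 398 at 100 to 200 bp, 135 at 200 to 300 bp, 69.7 at 300 to 400 bp and 45.3 at 400 to 500 bp. Input reads over the same steps went from 31.3 to 17.4 per kb. Past 500 bp, the scaled ratio was 2.24 (2.10 to 2.39) at 500 to 600 bp and 1.35 (1.26 to 1.44) at 900 to 1000 bp. At 1500 to 2000 bp it was 1.16 (1.13 to 1.21). The fall was not even: the ratio was 1.12 at 2500 to 3000 bp, 1.21 (1.17 to 1.26) at 3000 to 3500 bp and 1.07 at 3500 to 4000 bp. It was 1.03 (0.996 to 1.07) at 4500 to 5000 bp. At 500 to 600 bp the lone sites of the weaker classes had 1.63, 1.37 and 1.22. The excess at that distance was thus larger beside sites with more reads. The labels give chromatin of 100 to 500 bp, and whether fragments of the site itself add reads past 500 bp was not tested.

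The ratios were also taken without the lone sites that had an unlisted summit nearby. Such summits were picked on ChIP reads in the flanks themselves, so a lower ratio without them is built in. With the 7 that had an unlisted summit within 5 kb left out, the ratio of the remaining 397 was 1.65 from 500 to 1000 bp, 1.24 from 1 to 2 kb and 1.07 (1.06 to 1.09) from 2 to 5 kb, against 1.68, 1.25 and 1.11 for all 404. The 2 sides of the strongest sites held about the same number of ChIP reads. From 500 to 1000 bp there were 16266 on the side of lower coordinates and 16503 on the other, and from 1 to 5 kb 92968 and 93054.

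**Figure D5:**
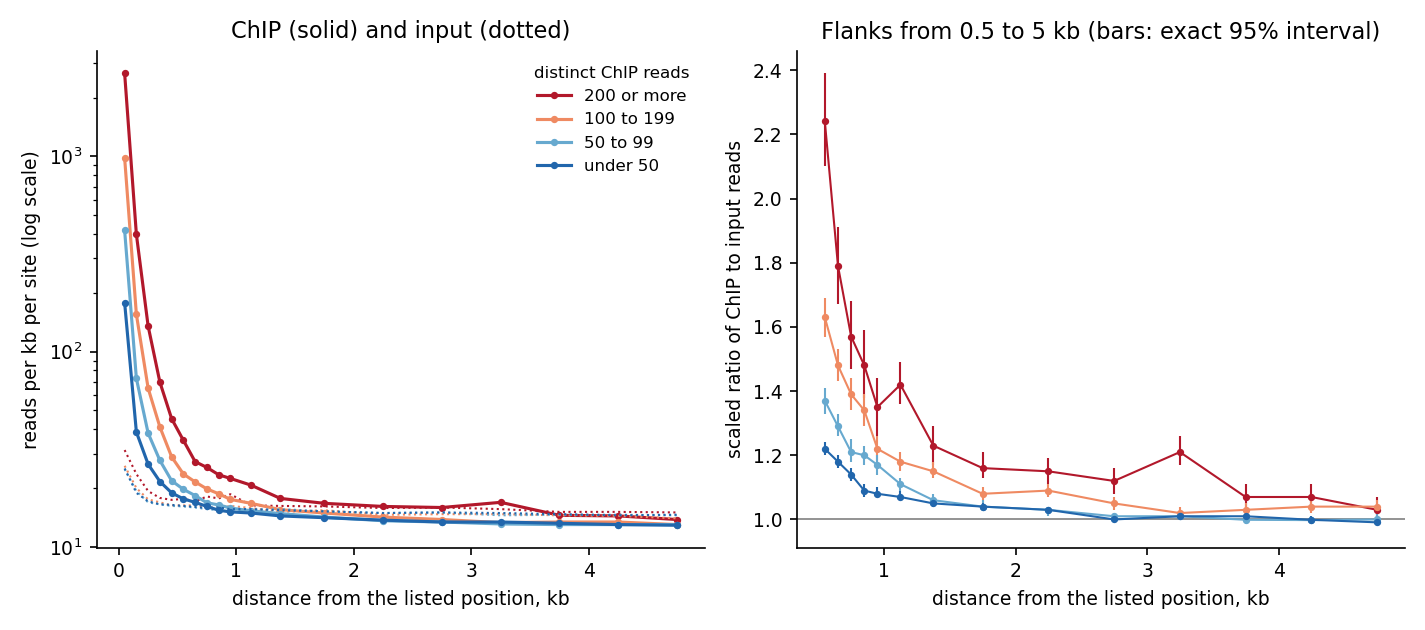
Reads around sites with no other listed site within 10 kb, by class of distinct ChIP reads. The left panel gives ChIP (solid) and input (dotted) reads per kb per site on a log axis, and the right panel gives the scaled ratio of ChIP to input from 0.5 to 5 kb with exact 95% intervals, highest for the strongest sites and near 1 at 5 kb.

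Site by site, the flanks 1 to 5 kb away were tested against input with an exact two-sided binomial test. Benjamini-Hochberg adjustment ran over 30323 listed sites, and an adjusted p under 0.05 was called. Of the 1332 strongest sites, 197 (14.8%, 13.0 to 16.8%) had more ChIP than input reads, whereas 8.24% of all tested sites did. Scaled by library totals, these shares were 6.53% and 3.52%. Fewer ChIP reads were found at 8 strongest sites (0.601%) and at 1.59% of all. The shares with more ChIP reads were 10.7%, 7.93% and 7.32% in the weaker classes. The median ratio of single sites was 1.14 for the strongest sites (quartiles 0.999 and 1.32) and 1.05 for all tested sites. Among the 404 with no listed site within 10 kb, 49 (12.1%) had more. The same share for weaker sites with none listed within 10 kb is not given here, so the 12.1% does not set these sites apart. Most flanks thus did not pass the test at a median of 134 ChIP and 129 input reads each, which does not show that they equal input.

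Among those 404, the highest ratio was at position 79814679 on chromosome 15, with 836 ChIP and 182 input reads in its flanks (ratio 5.14, with 0.5 reads added to each count, adjusted p = 2.77e-114, exact binomial test). An unlisted summit of 240 distinct reads stood within 5 kb of it. The next were position 16516401 on chromosome 18 (329 and 107 reads, ratio 3.44) and position 152888775 on chromosome 3 (434 and 153, ratio 3.17), with unlisted summits of 119 and 153 distinct reads. Position 109098716 on chromosome 8 (226 and 92, ratio 2.75) and position 38278654 on chromosome 11 (149 and 82, ratio 2.03) had no such summit.

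The lowest ratios were 0.680 at position 45755828 on chromosome 14 (78 ChIP and 129 input reads), 0.684 at position 11318141 on chromosome 2 (62 and 102) and 0.687 at position 121846984 on chromosome 8 (88 and 144). They were followed by 0.718 at position 48248898 on chromosome 8 and 0.719 at position 92316847 on chromosome 16 (130 and 203). Of these 5 the chromosome 16 site passed the test (adjusted p = 0.0396, exact binomial test). Its own window held 221 distinct ChIP reads and 12 input reads, so a strong pile stood in a flank with fewer ChIP than input reads.

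Inside the 1332, flank ratios changed with distinct reads unevenly from band to band. From 500 to 1000 bp the ratio was 1.66 (1.61 to 1.71) at 200 to 224 distinct reads, 1.65 at 225 to 249, 1.79 at 250 to 299 and 1.83 (1.75 to 1.91) at 300 or more. From 1 to 2 kb it was 1.23 (1.20 to 1.26), 1.28, 1.29 and 1.27 (1.23 to 1.32), so the lowest and the highest class overlapped. From 2 to 5 kb it was 1.10 (1.08 to 1.11) in the lowest class and 1.16 (1.14 to 1.18) in the highest.

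Input reads were themselves denser at the strongest sites than around them. They stood at 34.4 reads per kb within 100 bp of the position and 18.3 per kb at 1 to 5 kb, a ratio of 1.88 (1.84 to 1.92). In the weaker classes this ratio was 1.68 (1.66 to 1.70), 1.61 and 1.65. The limit of 31 input reads applied to each of these classes, and it left out 285 listed sites on the 19 chromosomes. What part raised input reads have in the ChIP counts at these sites was not tested.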

How the data were processed

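Each deposited read file holds 1 line per placed read of 37 bp with a count of 1, and the build is mm9 per the submitters' processing notes. The deposited peak list gives a whole-number signal for each position, with a span of 100 bp per the file headers. Aligner, peak caller and settings: not given in the sources used here.

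Reads were counted with Python 3.11.15, NumPy 2.4.6, SciPy 1.17.1 and pandas 2.3.3, and figures drawn with Matplotlib 3.10.9. The members, classes and tests were chosen with earlier results of these data known. Shares have Wilson 95% intervals and ratios exact conditional binomial 95% intervals, both for counting error only. The per-site flank test doubled the smaller binomial tail. It was run on counts simulated under its own assumptions, so its behaviour with repeats or extra variation between libraries was not tested. 4 listed sites had no read left in their flanks and were not tested.

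Sites named are the 10 with most distinct reads, 5 on each side of the threshold (ties by position), the 5 farthest from other sites, the 5 groups with most strongest sites (ties by listed sites), and the 5 highest and 5 lowest flank ratios among sites with none listed within 10 kb. Sites named for low height or high input were chosen after their values were seen. Motifs, site sequences and genes were not analysed here, since no sequence of this build was used.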

Additional observations from a re-analysis of the deposited data

Results flagged for a closer look

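Chromosome X was outside the comparisons above, and 7 of its listed sites also met the limits of 200 distinct ChIP reads and 31 input reads. They had 217 to 283 distinct ChIP reads, 392 to 587 ChIP reads in all and 2 to 14 input reads. Position 65761073 stood 1965183 bp from its nearest listed site, while position 166419204 stood in a group of 35.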

How the results depend on the processing

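No paired analysis was possible because each kind of library was single and the labels give no replicate numbers. Of 59 alternative values, 16 stayed close to the main value, meaning within 1.5 times for the number of strongest sites and the share of called flanks, and within the 95% interval for the others. The number of strongest sites, 1332, was 2978 with all reads in place of distinct ones, 442 with 5′ ends not moved, 759 with a window of 75 bp and 1877 with 150 bp (within 1.5 times), 2644 with a threshold of 150 distinct reads and 572 with 250. The share with a listed neighbour within 12500 bp, 73.7%, was 60.8% with heights of 30 or more, 69.3% with a threshold of 150 and 77.8% with 250, 68.0% with sites within 500 bp joined, 59.1% for 5 kb and 84.3% for 25 kb. With only neighbours more than 500 bp away, a setting chosen after seeing the data, it was 68.6%. The share with another strongest site, 12.3%, was 19% with a threshold of 150, 6.82% with 250, 10.3% with sites joined, 8.41% for 5 kb and 16.8% for 25 kb. The median distance of 2627 bp became 6326 bp with heights of 30 or more, 3627 bp with a threshold of 150, 1919.5 bp with 250 and 4972 bp with sites joined.

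Ratios in the flanks at 500 to 1000 bp, 1 to 2 kb and 2 to 5 kb, 1.72, 1.27 and 1.13, were 1.78, 1.32 and 1.17 with 250 bp masked around other listed sites and 3.17, 2.46 and 1.72 with none masked, which lets in the reads of those sites. They were 1.68, 1.25 and 1.11 with no listed site within 10 kb, and 1.65, 1.24 and 1.07 also without unlisted summits, chosen after seeing the data. A threshold of 150 gave 1.62, 1.22 and 1.10, and one of 250 gave 1.80 and 1.16 in the first and last bands. Scaled by library totals they were 1.5, 1.11 and 0.990, so the last turned below 1. The share of strongest sites with more ChIP reads in the flanks, 14.8%, was 49.3% without masking (32.6% of all listed sites) and 6.53% with library totals (3.52% of all). Of 24 alternative flank ratios, 23 were above 1. Depth limits single flanks, which held about 130 reads per library. The planned count of motifs was not run.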
